A study of Mus musculus with 3 samples.

Results

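The regions described here were the only accessible region that the deposited table assigned to a gene, and they lay at that gene's start. A gene was included when the table gave it 1 merged region and every peak called there in the UK5099, lactate and vehicle libraries lay within 1000 bases of the annotated start. In all, 2697 of 18890 genes (14.3%) met this rule. Some of them shared a region, and regions with identical values in the 3 libraries were counted once, which left 2502 distinct promoter regions among 17266 distinct rows of the table.

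Accessibility was profiled by ATAC-seq, which reads out the places where a transposase can cut into open chromatin, in organoids grown from basal epithelial cells of wildtype mouse prostate. Organoids are small three-dimensional structures of cells grown in culture. They were treated for 7 days with 10 µM UK5099, an inhibitor of the carrier that takes pyruvate into mitochondria, with 20 mM sodium lactate or with vehicle. Each condition was 1 library of bulk organoids, so no ratio below has a replicate check and no p-value is given.

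A promoter is the stretch of DNA at a gene's start where the transcription machinery assembles, and in active genes it is usually free of a nucleosome and open to the transposase. Many mammalian promoters, those of housekeeping genes above all, lie in CpG islands, which are rich in the dinucleotide CpG and often open in every cell type. Genes that define one cell type more often depend on enhancers, open regions farther from the start. A gene whose only accessible region is its promoter therefore offers a view of the promoter without the average over enhancers that other rows of the table hold.

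The printed sequences come from the regions with the highest and lowest ratios of UK5099 over vehicle at or above the members' median height, as far as a sequence was at hand, with 1 region close to the median for contrast. *Mkks*, *Defb2*, *Nos2* and others of these regions are described below without a sequence. Capitals mark every match, on either strand, to any of 15 short motifs that are named with their shares further on. For *Trim72*, *Lmf2* and *Diexf*, 3 of the genes with the highest ratios, 300 bases centred on the called peak are given on the strand of the gene, because the peak centre lay more than 50 bases outside the window from 250 bases before to 50 bases after the start. For the others the RefSeq promoter of that length is given, and all are on GRCm38.p6. The peak centre of *1700054K19Rik*, 87 bases downstream of the start, lay just past the end of its printed promoter. The *Trim72* window (chr7:128005066-128005365, + strand) lay 838 bases downstream of the start and overlapped an exon of *Gm15533* by 125 bases. The *Lmf2* window (chr15:89355952-89356251, - strand) lay 443 bases and the *Diexf* window (chr1:193130714-193131013, - strand) 613 bases upstream of the start, and neither overlapped an annotated exon.
Trim72: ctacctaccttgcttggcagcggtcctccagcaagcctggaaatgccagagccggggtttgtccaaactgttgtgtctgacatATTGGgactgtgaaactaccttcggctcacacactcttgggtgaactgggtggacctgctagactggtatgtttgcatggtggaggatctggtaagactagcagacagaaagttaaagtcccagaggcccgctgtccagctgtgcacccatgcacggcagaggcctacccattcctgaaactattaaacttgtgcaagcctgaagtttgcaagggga
Lmf2: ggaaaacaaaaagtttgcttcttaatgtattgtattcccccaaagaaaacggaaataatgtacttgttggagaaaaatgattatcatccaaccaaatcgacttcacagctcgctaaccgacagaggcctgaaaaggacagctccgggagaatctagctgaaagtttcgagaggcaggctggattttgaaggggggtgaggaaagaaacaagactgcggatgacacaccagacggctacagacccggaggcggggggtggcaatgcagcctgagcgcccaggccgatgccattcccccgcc
Diexf: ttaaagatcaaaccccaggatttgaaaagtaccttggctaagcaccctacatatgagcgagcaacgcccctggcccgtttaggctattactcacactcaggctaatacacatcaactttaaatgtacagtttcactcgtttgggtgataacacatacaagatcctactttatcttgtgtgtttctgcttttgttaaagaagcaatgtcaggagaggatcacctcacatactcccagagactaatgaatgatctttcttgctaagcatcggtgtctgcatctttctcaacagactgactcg
Promoters among the lowest ratios at that height were those of *1700054K19Rik* (chr6:112210458-112210757, + strand), *Gca* (chr2:62664077-62664376, + strand), *Zfp780b* (chr7:27979108-27979407, - strand) and *Tll2* (chr19:41206725-41207024, - strand). That of *Caprin2* (chr6:148896188-148896487, - strand) is shown as a promoter close to the median in both treatments.
1700054K19Rik: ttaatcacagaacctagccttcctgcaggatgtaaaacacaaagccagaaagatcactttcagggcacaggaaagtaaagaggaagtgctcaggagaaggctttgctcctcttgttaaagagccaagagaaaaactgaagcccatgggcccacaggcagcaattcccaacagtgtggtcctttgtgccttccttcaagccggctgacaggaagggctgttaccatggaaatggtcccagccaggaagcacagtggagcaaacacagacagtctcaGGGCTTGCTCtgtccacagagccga
Gca: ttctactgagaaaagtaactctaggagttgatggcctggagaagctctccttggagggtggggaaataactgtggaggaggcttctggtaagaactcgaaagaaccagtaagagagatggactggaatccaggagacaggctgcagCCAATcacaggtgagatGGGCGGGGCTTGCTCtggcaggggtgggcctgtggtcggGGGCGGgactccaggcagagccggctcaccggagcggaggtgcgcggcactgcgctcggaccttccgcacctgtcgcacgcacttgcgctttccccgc
Zfp780b: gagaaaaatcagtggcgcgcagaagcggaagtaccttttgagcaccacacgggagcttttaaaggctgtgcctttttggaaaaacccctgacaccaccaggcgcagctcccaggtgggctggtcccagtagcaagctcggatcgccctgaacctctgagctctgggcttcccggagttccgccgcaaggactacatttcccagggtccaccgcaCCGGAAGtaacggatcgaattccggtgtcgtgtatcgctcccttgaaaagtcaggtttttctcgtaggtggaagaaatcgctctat
Tll2: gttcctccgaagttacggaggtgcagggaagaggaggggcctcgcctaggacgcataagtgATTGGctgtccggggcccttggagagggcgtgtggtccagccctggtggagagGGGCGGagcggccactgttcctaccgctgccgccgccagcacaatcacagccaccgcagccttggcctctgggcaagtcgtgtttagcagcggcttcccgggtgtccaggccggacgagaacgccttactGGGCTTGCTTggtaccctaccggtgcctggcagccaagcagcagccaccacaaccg
Caprin2: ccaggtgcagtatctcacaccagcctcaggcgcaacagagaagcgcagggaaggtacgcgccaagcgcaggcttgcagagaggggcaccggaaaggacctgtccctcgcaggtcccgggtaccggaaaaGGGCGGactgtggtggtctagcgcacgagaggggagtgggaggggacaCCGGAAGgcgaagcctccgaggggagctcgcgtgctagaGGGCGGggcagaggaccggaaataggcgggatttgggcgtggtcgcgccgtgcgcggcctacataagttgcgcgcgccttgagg
The *1700054K19Rik* promoter held 2 CpG dinucleotides in 300 bases, against 29 in *Caprin2*. *Caprin2* held 2 GC boxes and 1 ETS site. *Gca* held 2 GC boxes, 1 CCAAT box and 1 p53 family half-site, of which the half-site overlapped a GC box. The windows of *Lmf2* and *Diexf* held no match to any of the 15 motifs, which says only that those letters were not in these 300 bases.

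The centre of the called peaks lay within 1000 bases of a GENCODE transcript start in 2475 of the 2502 regions (98.9%), which largely restates the rule. The median position was 27.0 bases upstream of the start, 1305 regions (52.2%) were centred within 100 bases of it, and 194 (7.75%) were centred more than 500 bases away. The median shift of the peak centre was 16.0 bases between UK5099 and vehicle, 0 between lactate and vehicle and 16.0 between UK5099 and lactate, with 95th percentiles of 288, 304 and 352 bases in the same order. At the limit of the rule, the peaks of *Pilrb1*, *Dusp6* and *Il11* lay just inside, and those of *7530422B04Rik*, *Gja10* and *Btf3l4*, at 1003, 1006 and 1008 bases, just outside. Just inside, *Dusp6* had heights of 285 in UK5099, 259 in lactate and 218 in vehicle. Just outside, *Btf3l4* had 133 in UK5099, 126 in lactate and 114 in vehicle. A gene's only region is called single distal below when every called peak lay over 1000 bases from the annotated start. Of these 2058 distal regions, 679 (33.0%) still lay within 1000 bases of a GENCODE transcript start, so part of this class lies at starts too.

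Heights are the number of reads stacked at the highest point of a peak, scaled by the authors. In each library every region's height was a whole multiple of 1 step, within 0.05 of a read, and the step was 1 in UK5099, 0.471 in lactate and 0.575 in vehicle. Divided by the step, a median region held 73 reads in UK5099, 159 in lactate and 113 in vehicle, so the UK5099 values carry the largest counting error. Intervals given for ratios are exact 95% intervals from these reads and cover counting error only. The labelled epithelial identity was visible in the table, where the basal genes *Krt5*, *Krt14*, *Trp63* and *Col17a1* and the luminal genes *Krt8*, *Krt18* and *Krt19* all had accessible regions, although *Vim*, *Pecam1* and *Ptprc* were listed as well. In bulk organoids, fewer cells of a type and less open chromatin per cell cannot be told apart.

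The single promoter regions were higher than the table at large. Their median height was 73 in UK5099, 74.9 in lactate and 64.9 in vehicle, whereas all rows had medians of 58 in UK5099, 59.6 in lactate and 50.7 in vehicle. Single distal regions were lower, with medians of 32 in UK5099, 33.0 in lactate and 29.9 in vehicle. Genes with 10 or more regions, whose value is an average over all of them, had medians of 52.1 in UK5099, 55.0 in lactate and 45.9 in vehicle. The tallest single promoter region was that of *Dnpep*, an aminopeptidase gene, at 415 in UK5099, 381 in lactate and 293 in vehicle. It was followed by *Fam160a2*, *M6pr*, which encodes a receptor that sorts lysosomal enzymes, *Cggbp1* and *4932412D23Rik*, with mean heights from 294 to 308. The lowest were *Ankrd34b*, *Stc1*, *4930563I02Rik*, *Trim12a* with *Gm15133*, and *Pax3*, with mean heights from 2.72 to 6.57, where a ratio rests on a handful of reads.

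A peak was called in all 3 libraries at 2204 of the regions (88.1%). This is a description, since called peaks chose the members. Peaks were called at 2296 regions in UK5099, 2399 in lactate and 2363 in vehicle, the fewest in the shallowest library, UK5099. Regions called in 1 library alone numbered 31 in UK5099, 73 in lactate and 46 in vehicle, and apart from *Luc7l2*, called in lactate alone, all were below the members' median height. Those called in UK5099 alone had median heights of 20 in UK5099, 12.7 in lactate and 13.2 in vehicle. Those called in lactate alone had 13 in UK5099, 17.4 in lactate and 13.2 in vehicle. A missing call did not always mean a low region. At 3 regions, *Mkks*, *Luc7l2* and *1110001J03Rik*, no UK5099 peak was listed although the UK5099 height was at or above the members' median there.

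Compared with vehicle, most single promoter regions were slightly higher in both treated libraries as deposited. The median ratio was 1.15 for UK5099 over vehicle, with 1835 of 2502 regions (73.3%) above 1, and 1.17 for lactate over vehicle, with 2024 (80.9%) above 1. All rows of the table had medians of 1.15 and 1.18, so the promoters did not stand apart from the rest in this shift. The shift itself depends on the scaling. When libraries were scaled by the median of ratios over the whole table, the promoters' medians became 0.995 for UK5099 over vehicle and 0.999 for lactate over vehicle. For that reason single regions are best read against the median ratio of 1.15 or 1.17, not against 1. Between the treatments, the median of UK5099 over lactate was 0.971. The promoters' median also rose with height. Between mean heights below 30 and those of 90 or more it went from 1.01 to 1.19 for UK5099 over vehicle. For lactate over vehicle it went from 1.08 to 1.19, and for UK5099 over lactate from 0.923 to 0.993. The median over all heights is therefore a rough reference for the lowest and tallest regions.

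At the thresholds the study used, 1.5-fold and 0.5-fold, few of the promoters were called. For UK5099 over vehicle, 205 regions (8.19%) reached 1.5-fold and 36 (1.44%) were at 0.5-fold or less, against 9.28% and 1.33% of all rows. Scaling by the median of ratios gave 72 and 55. For lactate over vehicle, 180 (7.19%) reached 1.5-fold and 12 (0.480%) were at 0.5-fold or less, against 6.20% and 0.498% of all rows, and 57 and 26 with the median of ratios. For UK5099 over lactate, 85 (3.40%) reached 1.5-fold and 43 (1.72%) were at 0.5-fold or less, against 3.65% and 1.46% of all rows. In all 3 comparisons the shares among the promoters were close to the background. Of the 205 regions past 1.5-fold in UK5099, 144 had a mean height under the members' median of 70.6, as had 34 of the 36 at 0.5-fold or less. The counting interval lay wholly above the members' median ratio for 162 regions (6.47%) and wholly below it for 187 (7.47%) in UK5099 over vehicle. In lactate over vehicle it lay above for 157 (6.27%) and below for 186 (7.43%). Some intervals would miss the median through counting error alone, so these counts are not counts of regions that truly depart from it. The same counts were not made over all rows of the table, so whether the promoters differ from the background here was not tested.

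Genes whose single region was distal spread more widely, and genes with 10 or more regions less widely. The middle 50% of the log2 ratios of UK5099 over vehicle spanned 0.384 in the promoters, 0.698 in single distal regions and 0.285 in genes with 10 or more regions. For lactate over vehicle the span was 0.331 in the promoters, 0.547 in single distal regions and 0.205 in genes with 10 or more regions. Distal regions reached 1.5-fold in 18.6% and were at 0.5-fold or less in 6.47% for UK5099 over vehicle, and in 14.4% and 2.43% for lactate over vehicle. The contrast was also present within bands of height. Among regions with a mean height of 30 to 60, 11% of 601 promoters and 19.7% of 557 distal regions were at 1.5-fold or more in UK5099 over vehicle, beside 9.99% of all rows in that band. At a mean height of 90 or more the shares were 4.08% of 956 promoters and 7.35% of 313 distal regions, beside 3.53% of all rows, so that the promoters were near the share of all rows in both bands. With 1 library per condition these differences could not be tested.

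**Figure D1:**
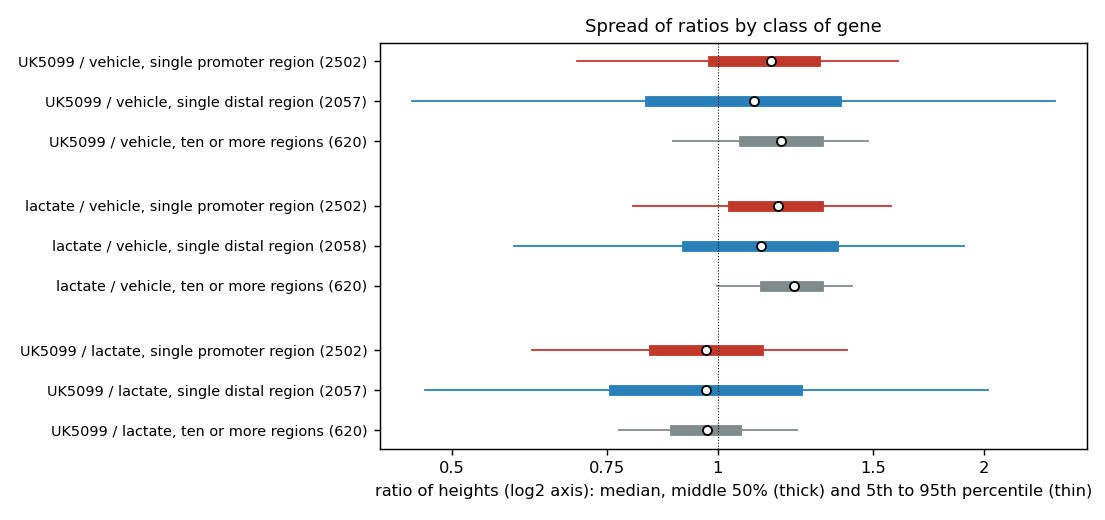
Ratios of peak height (horizontal log2 axis, no unit) in UK5099 over vehicle, lactate over vehicle and UK5099 over lactate for genes with a single promoter region, a single distal region, or 10 or more regions. Circles are medians, thick bars the middle 50% and thin lines the 5th to 95th percentile of the regions. Single promoter regions lie between the wide distal and the narrow many-region distributions, with 5th and 95th percentiles of 0.693 and 1.60 for UK5099 over vehicle.

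The highest ratios of UK5099 over vehicle, among regions at or above the median height, belonged to genes of diverse function. *Mkks*, which encodes a chaperonin-like protein, had heights of 155 in UK5099, 103 in lactate and 75.9 in vehicle, a ratio of 2.04 (interval 1.61 to 2.60) over vehicle. Its peak lay 706 bases upstream of the *Mkks* start and inside *Slx4ip*, a gene with 10 regions. *Defb2*, which encodes an antimicrobial beta-defensin, had 118 in UK5099, 81.5 in lactate and 59.2 in vehicle (1.99, 1.52 to 2.62). *Trim72*, a gene of muscle membrane repair, had 108 in UK5099, 72.6 in lactate and 59.2 in vehicle (1.82, 1.38 to 2.41). *Lmf2*, a lipase maturation factor, had 109 in UK5099, 82.9 in lactate and 59.8 in vehicle, and *Diexf*, a nucleolar factor, 129 in UK5099, 110 in lactate and 71.8 in vehicle. In all of them lactate was intermediate. *Gm17252*, *Zfp414* and *2310068J16Rik* completed the list with ratios of 1.77, 1.75 and 1.73. In 5 of these 8 genes, *Mkks*, *Trim72*, *Lmf2*, *Diexf* and *2310068J16Rik*, the peak was centred 423 bases or more from the start.

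At the other end, 1 region at or above the median height stood far below the rest of that height. *1700054K19Rik*, a predicted gene, had 29 in UK5099, 85.3 in lactate and 138 in vehicle, ratios of 0.210 (0.138 to 0.310) for UK5099 over vehicle and 0.618 (0.507 to 0.753) for lactate over vehicle. *Nos2*, which encodes the inducible nitric oxide synthase, had 46 in UK5099, 75.4 in lactate and 102 in vehicle, with ratios of 0.452 (0.320 to 0.629) and 0.741 (0.595 to 0.923). UK5099 was lowest and lactate intermediate at *Gca* too, which encodes the calcium-binding protein grancalcin, with 57 in UK5099, 82.0 in lactate and 97.7 in vehicle. *Zfp780b*, a zinc finger gene, had 71 in UK5099, 96.6 in lactate and 105 in vehicle. The other 4 were below vehicle in UK5099 but not in lactate, as deposited. For lactate over vehicle, *Tppp3* (1.08) and *Cldn23* (1.09) were nonetheless under the members' median of 1.17. *Tppp3*, a tubulin polymerization gene, had 60 in UK5099, 108 in lactate and 100 in vehicle. *Cldn23*, which encodes a tight junction claudin, had 88 in UK5099, 134 in lactate and 124 in vehicle. *A530020G20Rik* and the metalloprotease gene *Tll2* had ratios of 0.698 and 0.720 for UK5099 over vehicle and 1.22 and 1.27 for lactate over vehicle.

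The gene next to *1700054K19Rik* on chromosome 6, *Lmcd1*, had the lowest ratio of UK5099 over vehicle of all the promoters. It was picked out after its values were seen and lies below the height limit. *Lmcd1*, which encodes a LIM domain protein, had 9 in UK5099, 24.5 in lactate and 47.1 in vehicle, ratios of 0.191 (0.0843 to 0.381) and 0.520. Its start lies 63 kb from that of *1700054K19Rik*. The next gene of the table, *Cav3*, which starts 249 kb away and has a single region outside the rule, had 113 in UK5099, 90 in lactate and 113 in vehicle. Among taller regions, the ratios of neighbours were hardly correlated. Adjacent single promoter regions with starts over 5 to 100 kb apart made 301 pairs. Across them Pearson's r of the log2 ratios was 0.0443 for UK5099 over vehicle, and it was 0.0145 across 702 pairs over 1000 kb apart. Mean heights were at least 39.4, so the pair with *Lmcd1* was left out, and all values came from the same libraries. Counting error also lowers r, so weak agreement between neighbours cannot be judged from these values.

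For lactate over vehicle the same height limit was used. The highest, *Upp1*, which encodes uridine phosphorylase, had 84 in UK5099, 123 in lactate and 60.9 in vehicle, a ratio of 2.03 (1.61 to 2.56) for lactate over vehicle. *Uck1*, a uridine-cytidine kinase gene, had 86 in UK5099, 111 in lactate and 67.2 in vehicle (1.65, 1.31 to 2.07). *Trex2*, a DNA exonuclease gene, had 103 in UK5099, 122 in lactate and 66.1 in vehicle (1.85, 1.48 to 2.33). In these genes UK5099 was intermediate. *Tubgcp5*, a subunit of the gamma-tubulin complex, and *Cetn2*, a centrin of the centrosome, had ratios of 1.78 and 1.75. *Ccnc*, which encodes cyclin C, had 1.77, *Gnl3*, which encodes the nucleolar protein nucleostemin, 1.74, and *Gpc5*, a glypican gene, 1.62. The lowest at that height after *1700054K19Rik* were *4930555B11Rik* (0.687), *Nckap1* (0.695), which encodes a subunit of an actin regulatory complex, *Nos2*, *Setmar* (0.742), *Zfp110* (0.748), *Fbxo30* (0.757) and *Erh* (0.774). *Setmar* and *Erh* were at 136 and 158 in UK5099, 98.5 and 111 in lactate, and 133 and 144 in vehicle, so that lactate alone was below vehicle. Their ratios of UK5099 over vehicle, 1.02 and 1.10, were also under the members' median of 1.15.

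**Figure D2:**
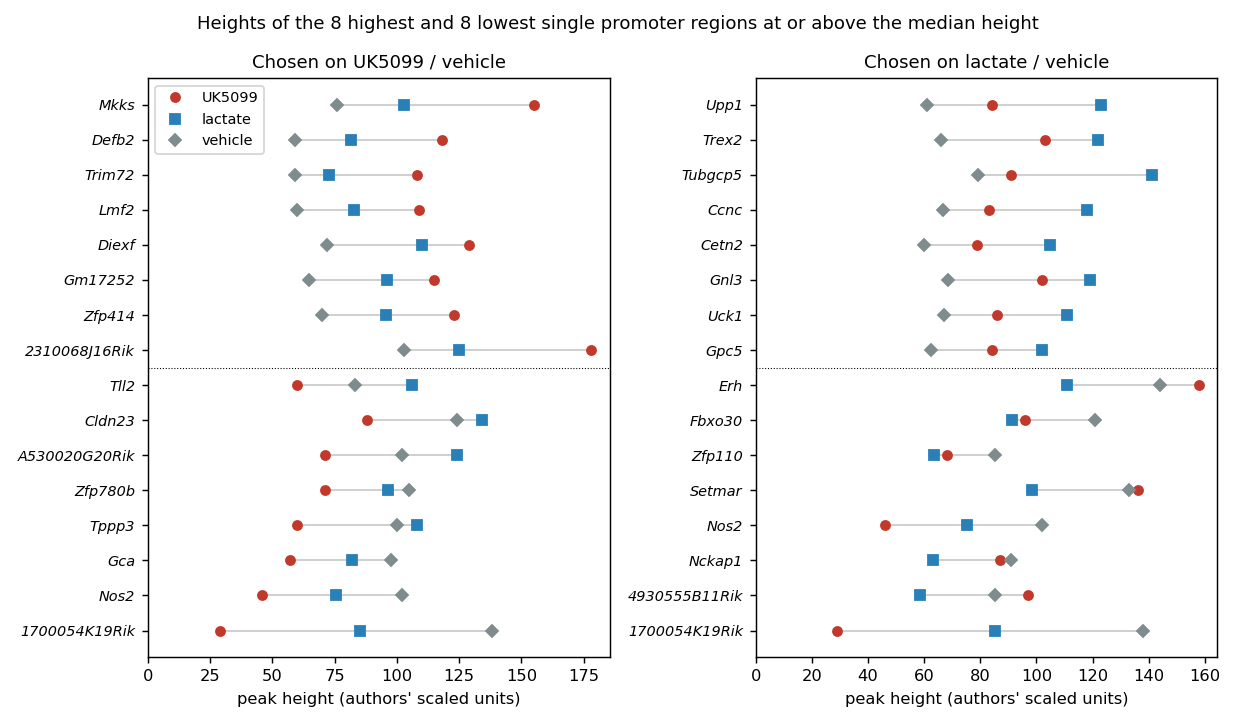
Peak heights (horizontal axis, authors' scaled units, from 0) in the UK5099 (circles), lactate (squares) and vehicle (diamonds) libraries for the 8 highest and 8 lowest single promoter regions at or above the median height, chosen on UK5099 over vehicle (left) and on lactate over vehicle (right). Grey lines span the 3 values of a gene, each from 1 library. *1700054K19Rik* has the widest gap in both panels, at 29 in UK5099, 85.3 in lactate and 138 in vehicle.

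Set against each other, among regions at or above the median height, the treatments differed most at *1700054K19Rik*, with a ratio of 0.340 (0.221 to 0.505) for UK5099 over lactate. *Tfam*, which encodes the factor that packages and transcribes mitochondrial DNA, had 59 in UK5099, 116 in lactate and 77.0 in vehicle, a ratio of 0.509 (0.376 to 0.679) for UK5099 over lactate. Vehicle lay between the treatments there. The same held for *Tmed3*, a vesicle transport gene, at 63 in UK5099, 114 in lactate and 82.2 in vehicle, for *Trim35* with *1700001G11Rik* (0.575), and for *Gnmt*, a glycine methyltransferase gene (0.599). Among those higher in UK5099, *Pramef8*, of a multigene family, had 104 in UK5099, 52.8 in lactate and 67.2 in vehicle (1.97, 1.49 to 2.60). *Cd164*, a sialomucin gene, had 148 in UK5099, 86.7 in lactate and 96.0 in vehicle (1.71, 1.37 to 2.13). The region shared by *Tyw3* and *Cryz* had 1.58, *Ankk1* 1.53, *Prpf40b* 1.52 and *LOC101055834* 1.51. *Rps27a*, which encodes a ribosomal protein fused to ubiquitin, had 211 in UK5099, 139 in lactate and 152 in vehicle (1.52, 1.27 to 1.82).

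The most extreme ratios were found at low heights. *Lhfpl1*, also picked out after its values were seen, had 28 in UK5099, 23.6 in lactate and 5.17 in vehicle, which is 28, 50 and 9 reads, and it was the highest for both treatments over vehicle (5.41, 2.48 to 13.0, and 4.55, 2.22 to 10.5). No vehicle peak was called there. *Ctla2b*, picked out in the same way, was lowest for lactate over vehicle, with 30 in UK5099, 19.3 in lactate and 57.5 in vehicle (0.336, 0.228 to 0.488). The region of *Pla2g10* and *1810007I06Rik* was lowest for UK5099 over lactate, with 14 in UK5099, 59.4 in lactate and 28.7 in vehicle (0.236, 0.125 to 0.411).

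The bases around the peaks divided the promoters. Windows of 300 bases centred on the peak had a median GC content of 63.5%, against 52.0% in single distal regions, and a median ratio of observed to expected CpG of 0.809, against 0.316. By the usual criterion, at least 50% GC and a CpG ratio of at least 0.6, 1965 promoters (78.5%) were CpG-rich, against 28.3% of distal regions. CpG-rich promoters were the higher ones, with median heights of 82 in UK5099, 83.9 in lactate and 70.1 in vehicle. The 537 others had 44 in UK5099, 44.8 in lactate and 40.8 in vehicle.

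The promoters that were not CpG-rich also varied more, above all in UK5099 over vehicle. For UK5099 over vehicle, 16.0% of them reached 1.5-fold and 4.10% were at 0.5-fold or less, against 6.06% and 0.712% of CpG-rich promoters, although the medians were 1.11 and 1.16. For lactate over vehicle the shares at 1.5-fold or more were 10.6% and 6.26%. In UK5099 over vehicle the contrast was present in every band of height. It was 20.4% against 11.1% at mean heights below 30, 17.9% against 8.67% from 30 to 60, 12% against 5.43% from 60 to 90 and 9.26% against 3.42% from 90 upward. In lactate over vehicle the contrast was clear only from 30 to 60, at 14.6% against 9.11%. It was 14.0% against 14.9% below 30, 5.43% against 5.19% from 60 to 90 and 3.70% against 2.59% from 90 upward. Of the 8 regions with the lowest UK5099 over vehicle named above, *1700054K19Rik* and *Nos2*, at CpG ratios of 0.271 and 0.149, were the poorest in CpG. *Defb2* and *Gm17252*, among the highest, had 0.0710 and 0.0568.

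**Figure D3:**
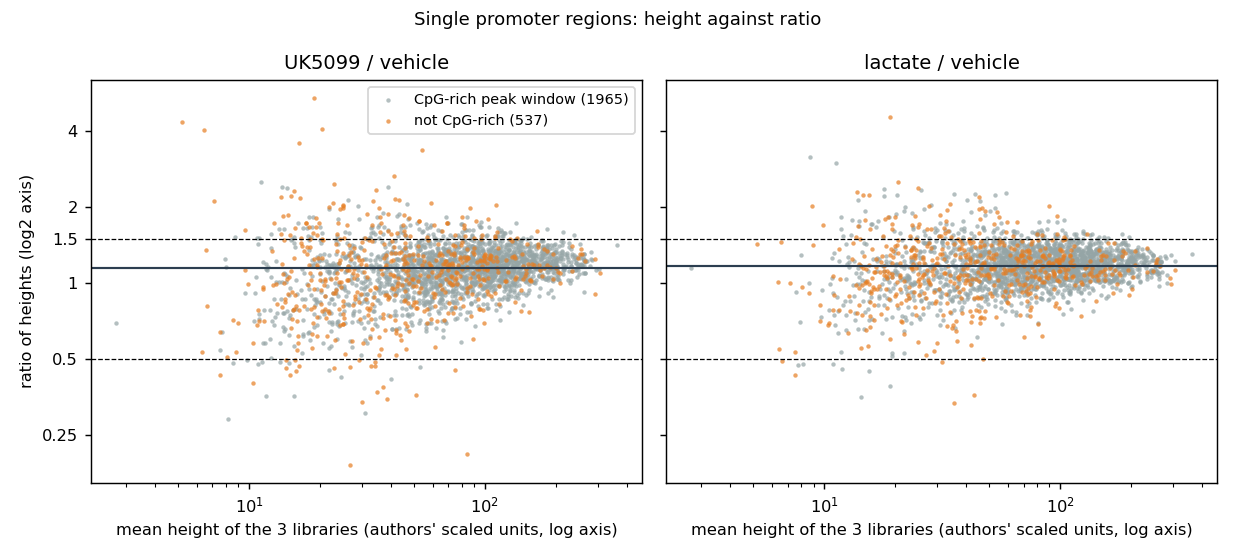
Ratio of peak heights (vertical log2 axis) against the mean height of the 3 libraries (horizontal log axis, authors' scaled units) for the 2502 single promoter regions, for UK5099 over vehicle (left) and lactate over vehicle (right). Each point is a region, grey where the peak window is CpG-rich (1965) and orange where it is not (537). The solid line is the members' median, 1.15 on the left and 1.17 on the right, and dashed lines mark 1.5 and 0.5. Spread narrows as height grows, and orange points are frequent among those past the dashed lines.

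Motif content differed between promoters and distal regions. The GC box (GGGCGG), bound by SP and KLF factors, was in 65.7% of the promoter peak windows and 28.2% of the distal windows. Among RefSeq promoters it was in 64.0% of the 1953 that matched a member and in 35.9% of all 27025. The ETS site (CCGGAAG) was in 22.7% of promoter and 8.07% of distal windows, and in 22.8% of members' and 9.12% of all RefSeq promoters. The NRF1 site, of a regulator of nuclear genes for mitochondria, was in 9.07% and 3.01% of windows. Its shares of members' and all RefSeq promoters were 11.2% and 4.78%. The AP-1 site (TGANTCA) showed the opposite, with 6.16% of promoter and 28.1% of distal windows, and 4.61% of members' and 7.93% of all RefSeq promoters. The TATA box (TATAAA) did too, with 3.88% and 9.18% of windows and 7.12% and 14.2% of RefSeq promoters, in the same order. For the p53 family half-site these were 6.0% and 10.8%, and 7.07% and 8.37%. The CCAAT box (CCAAT), bound by NF-Y, was in 38.2% and 33.1% of windows, and in 43.5% and 37.9% of RefSeq promoters. Promoters with it in the peak window had median heights of 95 in UK5099, 97.5 in lactate and 81.6 in vehicle. Those with a YY1 site had 94.5 in UK5099, 98.9 in lactate and 82.5 in vehicle, so this was not particular to CCAAT. Every motif was searched on both strands, and a GC box can overlap a p53 family half-site, as it did in *Gca*.

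The other 8 motifs were the CRE (TGACGTCA), the E-box (CACGTG), the YY1, ZBTB33, GRHL (AACCNGTT), FOXA (TGTTTAC), HOXB13 (CCAATAAA) and E2F (TTTCGCGC) sites, found in 0.999% to 9.43% of promoter windows. The HOXB13 letters contain those of the CCAAT box. Over the promoters with a motif, the median UK5099 over vehicle ranged from 1.11 for HOXB13 (25 regions) to 1.25 for FOXA (55 regions), beside 1.15 without the site in either case. For lactate over vehicle, the 236 promoters with an E-box, the site of MYC and USF factors, had a median of 1.23, beside 1.17 without one. For UK5099 over lactate the E-box promoters had 0.937, beside 0.973. These are descriptions, since a match of letters is not a bound site.

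Height differed with position and with neighbouring genes. Of the distinct regions, 192 were listed for more than 1 of the qualifying genes, 177 of them between genes on opposite strands, as at a bidirectional promoter, 13 on the same strand and 2 on different chromosomes with equal values. Those 177 had median heights of 112 in UK5099, 111 in lactate and 94.3 in vehicle, against 71 in UK5099, 73.3 in lactate and 63.2 in vehicle at promoters of 1 gene. Their share at 1.5-fold or more in UK5099 over vehicle was 6.21%, against 8.40%. Another 278 regions carried the same values as a gene outside the rule, so their signal may belong to that gene as well. Regions centred more than 500 bases from the start were low, with medians of 45 in UK5099, 47.3 in lactate and 40.8 in vehicle. Of them, 12.9% were at 1.5-fold or more in UK5099 over vehicle, beside 9.28% of all rows. Over all the promoters this share fell from 15.0% at mean heights below 30 to 4.08% at 90 or more. Height was matched neither here nor for the 177 shared regions.

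The 164 promoters on the X chromosome had a median of 1.24 for lactate over vehicle, against 1.17 for the 2336 on autosomes, and 14.0% were at 1.5-fold or more, against 6.72%. For UK5099 over vehicle the medians were 1.18 on the X chromosome and 1.14 on autosomes, with 12.8% and 7.88% at 1.5-fold or more. Their heights were lower, at 52.5 in UK5099, 58.0 in lactate and 46.3 in vehicle, against 75 in UK5099, 76.3 in lactate and 66.7 in vehicle on autosomes. The same lean was seen over all rows of the table, where the 445 on the X chromosome had medians of 1.21 for UK5099 and 1.24 for lactate over vehicle, with 14.2% and 10.6% at 1.5-fold or more.

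By function, single promoter regions were frequent among zinc finger genes and in several lists of basic cell upkeep. Lists of genes were compared by the share of their genes in the table that met the rule, 14.3% for all genes. That share was 38.7% for zinc finger genes (125 of 323), 38.2% for genes of the cell cycle and DNA replication (21 of 55), 33.3% for mitochondrial ribosomal proteins (25 of 75), 32.2% for the respiratory chain (28 of 87) and 29.4% for DNA repair (15 of 51). It was 27.1% for the proteasome, 26.7% for cytosolic ribosomal proteins, 26.5% for tRNA synthetases and 23.9% for pyruvate, lactate and the tricarboxylic acid (TCA) cycle. Other lists came closer to the share of all genes. These were interferon response genes (20.0%), translation initiation factors (17.6%), ubiquitin conjugating enzymes (14.3%) and RAB genes (12.3%). Epithelial identity genes were nearly missing. None of 46 keratin genes met the rule, nor did any of 13 vomeronasal receptor genes, and it was met by 1 of 30 basal, 2 of 41 luminal and 1 of 31 squamous differentiation genes and 1 of 46 olfactory receptor genes. Solute carriers (8.52%), microRNAs (6.33%), small nucleolar RNAs (6.06%) and histones (5.06%) were also below the share of all genes. Since the number of regions was part of the rule, these shares describe the members and test nothing.

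**Figure D4:**
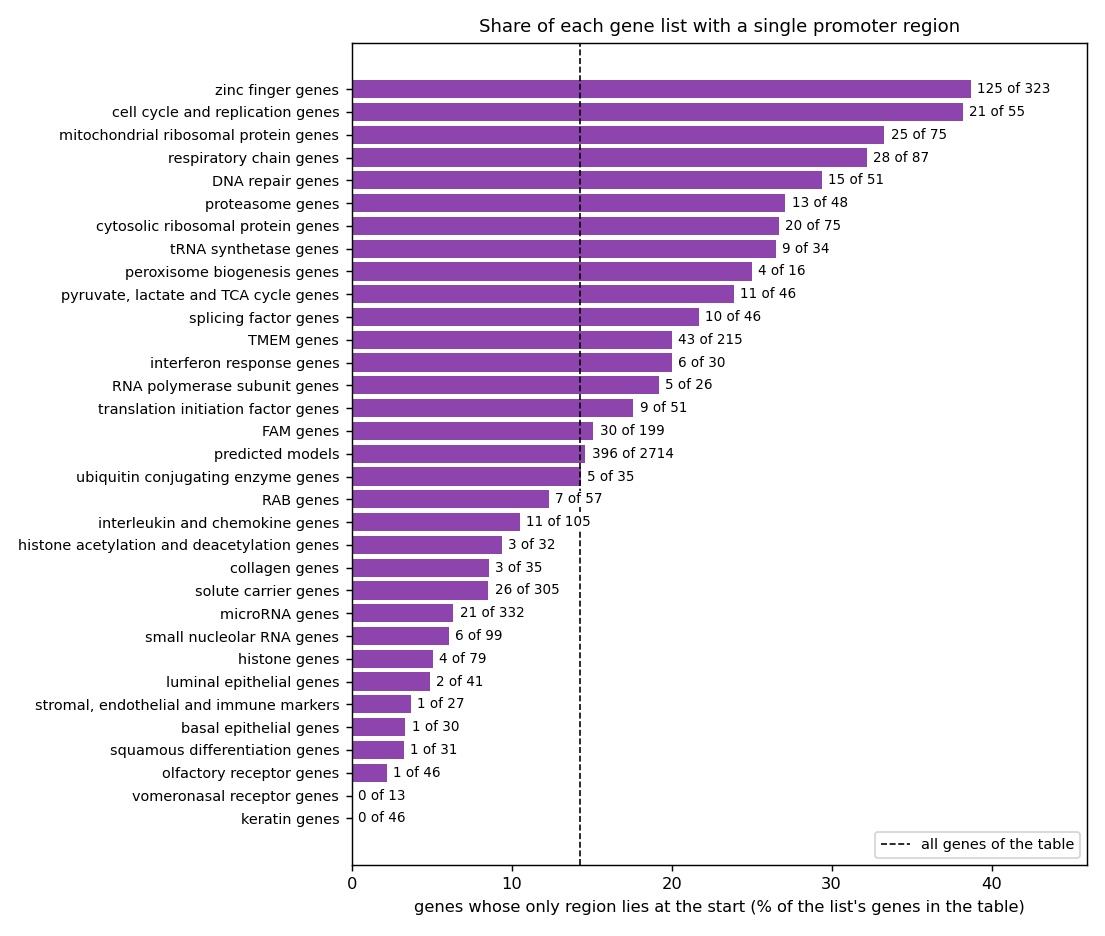
Share of each gene list whose genes have a single promoter region (horizontal axis, % of the list's genes in the table), with the counts at the end of each bar. The dashed line is the share among all genes, 14.3%. Zinc finger genes (125 of 323) and cell cycle genes (21 of 55) have the longest bars, and keratin genes (0 of 46) are at 0.

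Epithelial identity genes among them gave mixed values. *Snai2*, a transcription factor of basal cells, had 129 in UK5099, 98.0 in lactate and 100 in vehicle, a ratio of 1.29 (1.02 to 1.63) for UK5099 over vehicle and 0.980 for lactate over vehicle. *Prom1*, a luminal and progenitor membrane protein gene, had 28 in UK5099, 30.2 in lactate and 51.1 in vehicle, with ratios of 0.547 (0.345 to 0.845) and 0.590 (0.421 to 0.822). Both of its intervals lay below 1. *Sprr1a*, a gene of the cornified envelope, had 82 in UK5099, 98.0 in lactate and 78.2 in vehicle.

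Genes of pyruvate, lactate and the TCA cycle bear directly on the treatments, and 11 of them had a single promoter region. *Mpc2*, which encodes a subunit of the carrier that UK5099 blocks, had one of the tallest, at 317 in UK5099, 274 in lactate and 255 in vehicle (UK5099 over vehicle 1.24, 1.07 to 1.44). The pyruvate dehydrogenase genes *Pdhb* and *Pdha1* had 256 and 68 in UK5099, 275 and 92.3 in lactate, and 214 and 68.4 in vehicle. *Ldhb*, a lactate dehydrogenase gene, had 55 in UK5099, 72.1 in lactate and 47.7 in vehicle, and was the only one of the 11 past 1.5-fold in either comparison with vehicle (lactate over vehicle 1.51, 1.15 to 2.0). *Idh3g*, a subunit of isocitrate dehydrogenase, came near it in both, at 132 in UK5099, 134 in lactate and 89.7 in vehicle (1.47, 1.16 to 1.87, and 1.5, 1.23 to 1.83). *Dld*, the shared subunit of the oxo-acid dehydrogenases, had 1.39 and 1.29. The pyruvate dehydrogenase kinase gene *Pdk1* had 200 in UK5099, 177 in lactate and 158 in vehicle, while *Pdk4* was low at 21 in UK5099, 29.7 in lactate and 24.7 in vehicle. *Fh1*, *Sucla2* and *Suclg1*, of the TCA cycle, had ratios from 0.854 to 1.10 for UK5099 over vehicle. The medians of the list were 1.15 and 1.2, at or near those of all the promoters.

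Genes that modify histone acetylation were represented by *Hat1*, *Hdac2* and *Kat7*. *Hat1*, an acetyltransferase of newly made histone H4, had 91 in UK5099, 132 in lactate and 81.6 in vehicle, a ratio of 1.62 (1.32 to 2.0) for lactate over vehicle. *Hdac2*, a histone deacetylase gene, had 85 in UK5099, 79.2 in lactate and 72.4 in vehicle, and *Kat7*, an acetyltransferase gene, 198 in UK5099, 193 in lactate and 174 in vehicle. Their ratios were 1.17 and 1.14 for UK5099 over vehicle and 1.09 and 1.11 for lactate over vehicle.

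Some lists leaned away from the median promoter, which is taken over all heights. Members with a mean height of 90 or more had medians of 1.19 for UK5099 over vehicle and 0.993 for UK5099 over lactate. The 20 cytosolic ribosomal protein genes had a median of 1.25 for UK5099 over vehicle, with 17 of 20 above the members' median, and of 1.07 for UK5099 over lactate, again with 17 of 20 above. *Rpl12* had 102 in UK5099, 97.1 in lactate and 65.5 in vehicle, and *Rpl5* 57 in UK5099, 44.3 in lactate and 36.8 in vehicle. At the low end were *Rpl26* (1.08) and *Rps13* (1.14), still near the median. The list's median of UK5099 over vehicle was 1.08 once libraries were scaled by the median of ratios. The 10 splicing factor genes had 1.25 for UK5099 and 1.09 for lactate over vehicle, led by *Prpf40b* at 1.62 and *Srsf7* at 1.43, with *Prpf38b* at 1.03 and *Sf3b4* at 1.18. All 9 translation initiation factor genes lay above the members' median for UK5099 over lactate, where the list had a median of 1.08, and *Eif1* had 162 in UK5099, 119 in lactate and 102 in vehicle. *Eif4g2* had 292 in UK5099, 271 in lactate and 224 in vehicle. *Eif4a2* and *Eif1ad* had 1.09 and 0.920 for UK5099 over vehicle. The 5 RNA polymerase subunit genes had a median of 1.30, from 1.2 for *Polr3d* to 1.74 for *Polr2m*, with *Polr3e* and *Polr3k* between.

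Other lists leaned towards lactate. The 9 tRNA synthetase genes, whose products charge tRNAs with amino acids, had a median of 1.28 for lactate over vehicle, with 8 of 9 above the members' median, and of 0.865 for UK5099 over lactate, with 1 of 9 above. *Iars* had 189 in UK5099, 220 in lactate and 140 in vehicle, and *Tars* 137 in UK5099, 178 in lactate and 146 in vehicle. *Nars* and *Yars2* had 1.25 and 0.985 for lactate over vehicle. The 21 cell cycle and replication genes had medians of 1.08 for UK5099 and 1.22 for lactate over vehicle and 0.915 for UK5099 over lactate, where 5 of 21 lay above the members' median. *Mcm3*, of the replicative helicase, had 142 in UK5099, 151 in lactate and 96.6 in vehicle, past 1.5-fold in lactate alone (1.57, 1.30 to 1.90). *Top2a*, a topoisomerase gene, had 101 in UK5099, 80.1 in lactate and 65.5 in vehicle, past 1.5-fold in UK5099 alone (1.54, 1.17 to 2.03). *Tyms*, the thymidylate synthase gene, had 46 in UK5099, 68.8 in lactate and 50 in vehicle, and *Ccnb2*, a mitotic cyclin gene, 62 in UK5099, 79.2 in lactate and 54.0 in vehicle. The remaining 17 ranged from 0.746 (*Gins3*) to 1.2 (*Ccne1*) for UK5099 over vehicle.

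Among the 11 interleukin, chemokine and receptor genes, 5 were at 1.5-fold or more in lactate over vehicle, all of them with mean heights of 38.6 or less. Over all rows the share was 6.20%, and it was 12.8% at mean heights below 30 and 7.03% from 30 to 60. They were *Il12b* (1.93, 1.22 to 3.12), *Cxcr4* (1.70), *Il15ra* (1.64), *Il10ra* (1.59) and *Il13ra1* (1.52). *Il12b* had 18 in UK5099, 31.1 in lactate and 16.1 in vehicle, and *Il15ra* 21 in UK5099, 39.6 in lactate and 24.1 in vehicle. The taller regions of this list, *Il6st* at 180 in UK5099, 154 in lactate and 149 in vehicle, *Ccl25* at 127 in UK5099, 144 in lactate and 129 in vehicle, and *Il7* at 106 in UK5099, 93.3 in lactate and 90.8 in vehicle, stayed between 1.03 and 1.12 for lactate over vehicle. *Il11*, *Cxcr4* and *Il1f6* were at 1.5-fold or more in UK5099 over vehicle, at 1.87, 1.56 and 1.74, where 9.28% of all rows were.

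The medians of the mitochondrial ribosomal protein and zinc finger lists over vehicle stayed close to those of all the promoters. Mitochondrial ribosomal protein genes had medians of 1.19 for UK5099 and 1.22 for lactate over vehicle, from *Mrpl16* (54 in UK5099, 43.8 in lactate, 29.3 in vehicle) and *Mrpl39* (1.59) at the top to *Mrpl44* (0.799) and *Mrps24* (0.898) for UK5099 over vehicle. Respiratory chain genes had 1.12 and 1.10, and for lactate over vehicle 10 of 28 lay above the members' median of 1.17. For UK5099 over vehicle *Ndufb11* was at 1.54 and *Ndufa11* at 1.40, against *Ndufb7* at 0.870 and *Ndufaf5* at 0.880. The 124 zinc finger regions had 1.11 and 1.15, and 5 and 8 of them were at 1.5-fold or more, with *Zfp414* and *Zfp772* (1.61) highest and *Zfp780b* and *Zfp592* (0.728) lowest for UK5099 over vehicle. DNA repair genes had 1.13 and 1.16, from *Fancf* (1.54) and *Atm* (1.43) to *Fancl* (0.931) and *Fancb* at 127 in UK5099, 170 in lactate and 165 in vehicle (0.770, 0.620 to 0.952). Proteasome genes had 1.2 and 1.19, within 0.990 to 1.5 for UK5099 over vehicle, led by *Psma4* and *Psmg1*. Their median for UK5099 over lactate was 1.07, with 8 of 13 above the members' median of 0.971.

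**Figure D5:**
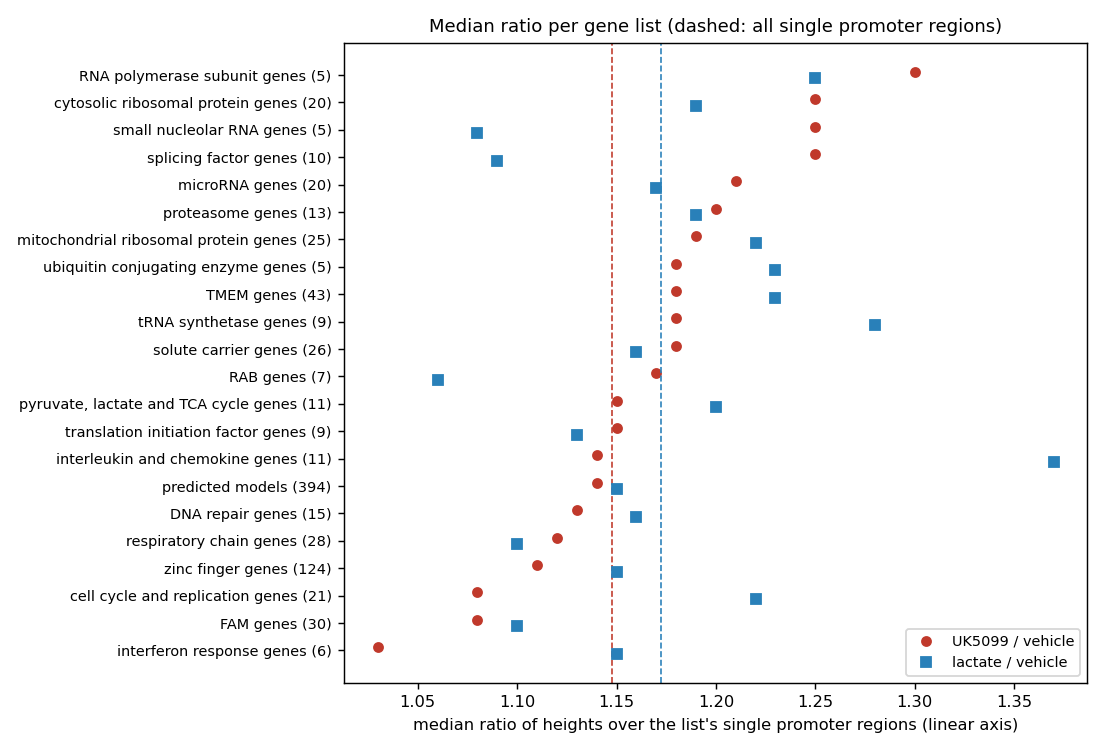
Median ratio of peak heights (horizontal linear axis) over the single promoter regions of each gene list with at least 5 regions, for UK5099 over vehicle (circles) and lactate over vehicle (squares). The number of regions is in brackets and dashed lines are the medians of all 2502 regions, 1.15 and 1.17. Cytosolic ribosomal protein genes lie to the right for UK5099 (1.25), and interleukin and chemokine genes (1.37) and tRNA synthetase genes (1.28) for lactate.

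The interferon response list had 6 regions, of *Psmb9*, *Ifit2*, *Ifit1*, *B2m*, *Gbp2* and *Ddx58*, with medians of 1.03 and 1.15 and none past a threshold in any comparison. Of 20 microRNA regions, 5 were at 1.5-fold or more in UK5099 over vehicle, among them *Mir28* (57 in UK5099, 48.1 in lactate, 30.5 in vehicle) and *Mirlet7i* (78 in UK5099, 51.4 in lactate, 46.6 in vehicle), which were the highest at mean heights of at least 39.4. Over all rows that share was 9.28%, and it was 18% at mean heights below 30 and 9.99% from 30 to 60. The 26 solute carrier regions had medians of 1.18 and 1.16. *Slc40a1*, the iron exporter gene, had 48 in UK5099, 60.3 in lactate and 69.0 in vehicle, a ratio of UK5099 over vehicle of 0.696 (0.487 to 0.980). The 3 collagen regions were low, with medians of 15 in UK5099, 14.6 in lactate and 20.1 in vehicle, and the median UK5099 over vehicle was 0.834. Predicted gene models made up 394 of the regions with ratios of UK5099 over vehicle from 0.210 to 4.06, among them *Gm10099* at 2.65 (1.77 to 4.01) and *Gm10768* at 0.361 (0.217 to 0.576) beside *1700054K19Rik*. Their median ratios, 1.14 for UK5099 and 1.15 for lactate over vehicle, were near those of all the promoters.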

How the data were processed

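ATAC-seq libraries of mouse basal-derived prostate organoids were compared, 1 each for UK5099, lactate and vehicle, grouped by the treatment in the sample labels. Per the study's methods, cryopreserved cells were tagmented and sequenced in pairs, reads were aligned with BWA, duplicates and ambiguous reads were removed, reads were extended to 200 bases and stacked in bins of 32 bases, and each library's peaks were called with no control. The submitters' processing notes name MACS3 and the build mm10, while the methods name an earlier MACS. The sources used here do not say whether reads were shifted for the transposase. What the authors deposited is a table with 1 row per gene and a signal per library, the height averaged over a gene's merged regions, which for genes with 1 region is the height of that region. It also holds the deposited count of merged regions and the called peaks with their distances to the start. Peaks of a further library, not analysed here, entered the merging. The authors' scaling rule is not stated in the sources used. No column of sample values was left unmapped. Heights are stacked coverage and not counts of fragments, so no count test was run.

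Ratios were taken without a pseudocount and compared with 1.5 and 0.5, the study's thresholds. Intervals are exact conditional (Clopper-Pearson) 95% intervals of the stacked reads and hold no variation between cultures. The members and the lists were chosen with earlier results of these data known, and the name patterns of the histone and initiation factor lists were corrected after their matches were seen. Genes were named by rule: for each comparison the 8 highest and 8 lowest ratios among members at or above the median mean height of 70.6, the 5 largest and 5 smallest heights, for each list with at least 3 members the 2 highest and 2 lowest by UK5099 over vehicle at or above the lower quartile of 39.4, the 3 nearest each side of the distance limit and the 3 closest to the median. Outside this rule, all members of the lineage, pyruvate, acetylation, interferon, interleukin and cell cycle lists could be named, a choice made with their values known. Other genes are said to have been picked out after their values were seen. Sequences were printed for named genes with a RefSeq promoter entry (1953 members matched), and a peak window that overlapped an untranslated region by more than 30 bases was not printed. Starts came from GENCODE M21. Python 3.11.15, pandas 2.3.3, scipy 1.17.1 and pysam 0.24.0 were used, and the computation was tested on simulated data.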

Additional observations from a re-analysis of the deposited data

How the results depend on the processing

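No paired analysis was possible because each group held 1 library, and no replicate could be left out. The other settings tried gave the values that follow. Scaling by the median of ratios over the whole table gave medians of 0.995 (UK5099 over vehicle), 0.999 (lactate over vehicle) and 0.989 (UK5099 over lactate), and scaling to the same total 0.990, 0.998 and 0.984, so both comparisons with vehicle turned below 1. The authors' scaling thus sets the direction of the median, and which scaling is closer to the cells cannot be told from 1 library per condition. Under these scalings, 72 and 71 regions were at 1.5-fold or more and 55 and 55 at 0.5-fold or less in UK5099 over vehicle, and 57 and 56, and 26 and 26, in lactate over vehicle. A pseudocount of 5 gave medians of 1.14 and 1.16 over vehicle. It left 13 regions at 0.5-fold or less in UK5099 over vehicle, 4 in lactate over vehicle and 18 in UK5099 over lactate, where 49 were at 1.5-fold or more. Among the 1876 regions with a mean height of at least 39.4, the medians over vehicle were 1.17 for UK5099 and 1.18 for lactate, 110, 89 and 30 regions were at 1.5-fold or more in UK5099 over vehicle, lactate over vehicle and UK5099 over lactate, and 5, 1 and 9 at 0.5-fold or less. Among the 2204 regions called in all 3 libraries, 5, 2 and 13 were at 0.5-fold or less in the same comparisons, and 43 at 1.5-fold or more in UK5099 over lactate. With the inverse of 1.5 as the lower threshold the counts were 105, 43 and 169, and with 2 as the upper one 30, 25 and 18. A limit of 500 bases or counting every row kept every summary within 1.5 times, or within the 95% interval of the median. All 48 ratios of the highest and lowest genes stayed inside their counting interval under both scalings and the pseudocount. Of the 36 regions at 0.5-fold or less in UK5099 over vehicle, 34 were below the members' median height, and depth was lowest in UK5099, which limits the precision of such ratios.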
